A study of Mus musculus with 9 samples.

Results

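Keratin and keratin-associated genes were followed through 9 RNA sequencing libraries of mouse gastrocnemius, the large calf muscle. Their 104 rows were taken from a table of 23284 genes by symbol alone, as every symbol that begins with Krt and a digit or with Krtap, which gave 52 keratin genes and 52 keratin-associated genes. The gene families were selected on their raw counts and CPM (defined below) in these same 9 libraries, to show which libraries carried transcripts of skin or hair, so their levels by library are a description with no test. The 4 knockout libraries carried the genotype label Grpc6afl/fl;Mck-Cre, and the 5 control libraries the label Grpc6afl/fl, both on a 129/C57/BL6 background. Every mouse was 3 months old and had exercised, and no unexercised muscle or group with Cre alone is used here. The Mck promoter drives Cre in striated muscle, so a loxP-flanked gene stays intact in other cells of the tissue. The titles of the knockout libraries name Gprc5a, while their genotypes and descriptions name Gprc6a, which had 0 counts in all 9 libraries, so the counts do not check the labels.

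Keratins are the intermediate filament proteins of epithelia, and a type I chain always pairs with a type II chain. In the epidermis the pair of Krt5 and Krt14 marks the basal layer, and the pair of Krt1 and Krt10 replaces it as cells move outward. Hair shafts are built from a separate set of hair keratins embedded in cysteine-rich or glycine-rich keratin-associated proteins. The root sheath that surrounds the growing shaft uses further keratins of its own. Skeletal muscle fibres are built mainly around desmin, although low amounts of Krt8 and Krt19 are known at the costameres of mouse muscle, where the contractile apparatus is tied to the membrane.

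The keratin transcripts stood out in 3 libraries, and these came from both groups. The summed level of the 104 genes was 54.8, 138, 17.1 and 16.8 CPM, counts scaled to a library total of 1e6, in knockouts 1 to 4, against 17.4, 189.5, 17.2, 22.6 and 14.9 CPM in controls 1 to 5. Control 2, knockout 2 and knockout 1 thus held the highest sums, in that order, and the other 6 libraries lay close together. The transcripts high in those 3 libraries were mainly those of epidermal keratins. Hair keratins and keratin-associated genes were at or near 0 counts in every library. The name hair therefore does not describe what was counted. The genes are called epidermal or hair keratins below by what each is known for. Krt222, which is neither, stood at 5.94 to 11.5 CPM in the other 6 libraries, a large part of their sums. Total counts per library ranged from 19522947 to 25608659, so that 1 count was worth 0.0390 to 0.0512 CPM and a count of 0 allows at most 0.117 to 0.154 CPM. In these bulk libraries more cells of a type and more RNA per cell cannot be told apart.

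Of the 104 genes, 69 had 0 counts in all 9 libraries, 35 had at least 1 count somewhere, and 14 reached 1 CPM in at least 1 library. The gene just above that level was Krt23 at 1.44 CPM, and the gene just below it was Krt78 at 0.859 CPM. All 14 genes above it were epithelial keratins or Krt222. Only 8 genes had counts in all 9 libraries.

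The DNA just before and after the start of 4 of these genes is shown, since Krt5, Krt77 and Krt10 held the epidermal pattern and Krtap3-2 is the keratin-associated gene with the most counts. Each stretch runs from 250 bases before to 50 bases after the start in RefSeq, build GRCm38.p6, all on the minus strand. They lie at chr15:101712856-101713155 for Krt5, chr15:101869656-101869955 for Krt77, chr11:99389315-99389614 for Krt10 and chr11:99556804-99557103 for Krtap3-2. Capitals mark the motifs TATAAA, GCCNNNGGC and TGANTCA, which were searched on both strands.
Krt5: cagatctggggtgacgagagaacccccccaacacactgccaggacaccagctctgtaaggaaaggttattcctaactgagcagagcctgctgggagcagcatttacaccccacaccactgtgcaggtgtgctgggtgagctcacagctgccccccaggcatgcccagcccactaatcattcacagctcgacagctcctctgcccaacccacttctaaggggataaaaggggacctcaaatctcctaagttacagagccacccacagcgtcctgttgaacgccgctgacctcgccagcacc
Krt77: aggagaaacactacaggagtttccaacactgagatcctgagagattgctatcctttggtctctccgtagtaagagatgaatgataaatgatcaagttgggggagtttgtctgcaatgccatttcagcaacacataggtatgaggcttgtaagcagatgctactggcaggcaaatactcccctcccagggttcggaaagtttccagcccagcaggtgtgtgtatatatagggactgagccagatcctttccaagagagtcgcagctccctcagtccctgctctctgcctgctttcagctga
Krt10: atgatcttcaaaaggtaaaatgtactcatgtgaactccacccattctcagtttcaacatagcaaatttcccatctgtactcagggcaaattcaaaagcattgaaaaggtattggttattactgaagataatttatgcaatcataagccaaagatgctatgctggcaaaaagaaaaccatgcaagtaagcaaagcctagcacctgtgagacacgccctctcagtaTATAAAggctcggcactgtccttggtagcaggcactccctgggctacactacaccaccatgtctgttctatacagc
Krtap3-2: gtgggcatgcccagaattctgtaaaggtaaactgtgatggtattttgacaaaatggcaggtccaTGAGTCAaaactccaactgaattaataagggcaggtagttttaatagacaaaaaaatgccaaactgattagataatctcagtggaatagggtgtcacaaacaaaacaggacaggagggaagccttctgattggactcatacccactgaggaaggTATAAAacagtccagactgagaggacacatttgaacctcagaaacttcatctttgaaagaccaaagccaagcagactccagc

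TATAAA, the core of the TATA box, was found in the stretches of Krt10 and Krtap3-2 and not in those of Krt5 and Krt77. Only these exact letters were searched, so a stretch without them can still hold a variant of the TATA box. Of 32851 such stretches in the RefSeq table, 13.6% held it. Among the genes described here, 74 had a stretch in that table and 53 of them held TATAAA. A gene was counted when any of its stretches held the motif, so numbers of genes and shares of stretches differ in unit, here and below. It was found for 35 of 40 keratin-associated genes and all 6 keratins of the inner root sheath, against 4 of 10 epithelial type I and 2 of 9 epithelial type II keratins. By counts, 45 of 53 genes at 0 in every library held it, and 8 of 21 genes with counts. GCCNNNGGC, a motif of AP-2 factors, was in 6 of the 74 genes and in 16.6% of all stretches. TGANTCA, a motif of AP-1 factors, was in 9 of the 74 genes and in 7.81% of all stretches. These matches describe letters in the window and show no binding.

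**Figure D1:**
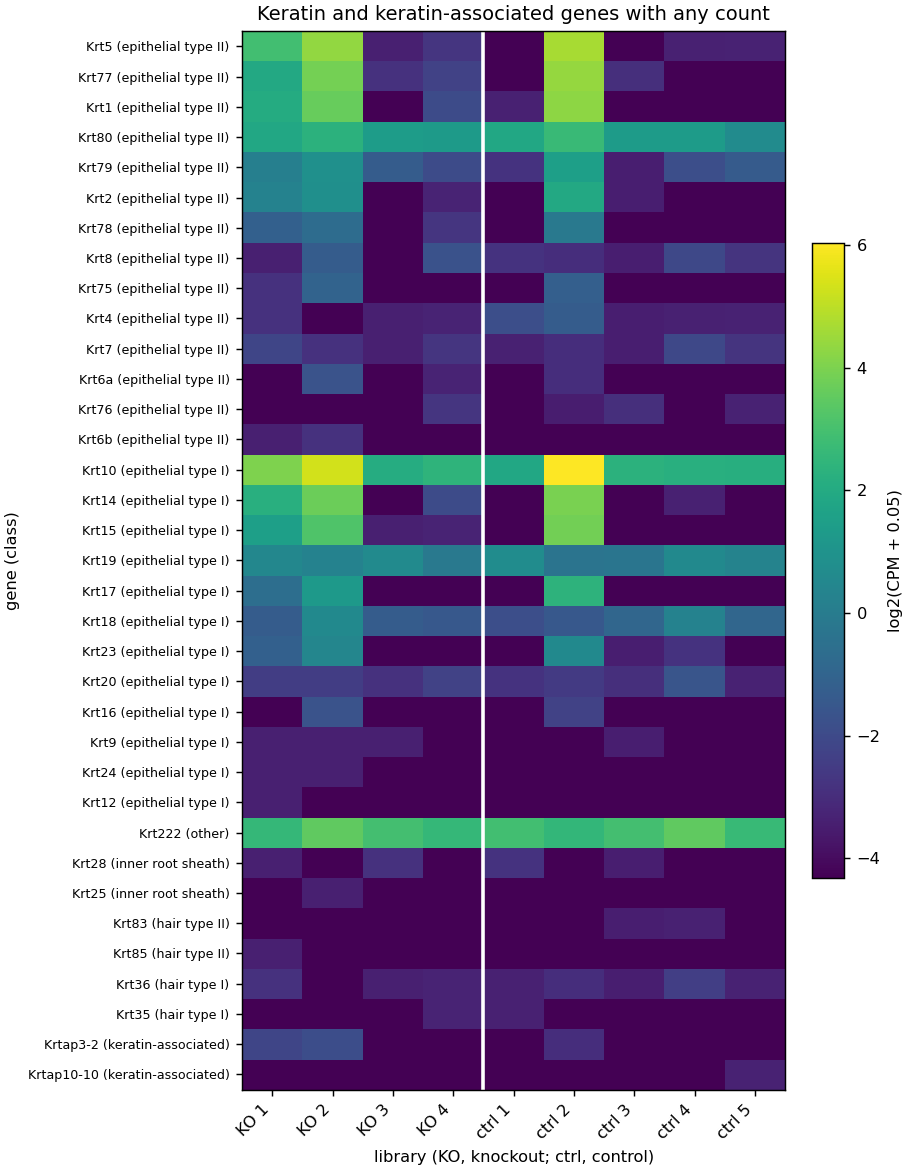
Level of each of the 35 genes with any count (rows, with their class) in each library (columns, knockouts left and controls right of the white line), as log2(CPM + 0.05) in colour. The rows of Krt5, Krt77, Krt1, Krt14 and Krt15 are bright in KO 1, KO 2 and ctrl 2 and dark elsewhere, while Krt222 and Krt19 are alike in all 9 columns.

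Among the basal keratins, Krt5, the type II keratin of the basal epidermis, had 167, 463, 1 and 2 counts in knockouts 1 to 4, against 0, 647, 0, 1 and 1 in controls 1 to 5. Its level was 7.40, 20.5, 0.0439 and 0.102 CPM in knockouts 1 to 4 and 25.3 CPM in control 2. Its type I partner Krt14 had 103, 298, 0 and 4 counts in knockouts 1 to 4, against 0, 393, 0, 1 and 0 in controls 1 to 5. In both genes the knockout and control values overlapped over nearly their whole range, because each group held libraries at or near 0 and at least 1 library far above. Krt15, a further type I keratin of basal cells and of the hair follicle bulge, had 64, 201, 1 and 1 counts in knockouts 1 to 4, against 0, 362, 0, 0 and 0 in controls 1 to 5. A part of the 50-base words in the transcripts of Krt5 (12.2%) and Krt14 (13.9%) also stands in other genes, mainly Krt6a and Krt16. Those partners had at most 6 counts in any library. On the opposite strand Gm44323 overlaps 5.87% of the exon bases of Krt5, and whether the counting used strand is not stated in the sources used here.

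Among the keratins of the upper layers, Krt1, the type II keratin of differentiating epidermis, had 92, 274, 0 and 4 counts in knockouts 1 to 4, against 1, 497, 0, 0 and 0 in controls 1 to 5. Krt77, a type II keratin related to Krt1, had 85, 326, 2 and 3 counts in knockouts 1 to 4, against 0, 540, 2, 0 and 0 in controls 1 to 5. Krt2, a type II keratin of the outermost living layers, had 26, 39, 0 and 1 counts in knockouts 1 to 4, against 0, 95, 1, 0 and 0 in controls 1 to 5. All 3 genes followed the same order of libraries as Krt5, with control 2 first, then knockout 2, then knockout 1. Krt2, Krt1 and Krt77 stand next to each other in that order in RefSeq's annotation of chromosome 15, followed by Krt76 and Krt4, which had at most 2 and 9 counts in any library.

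Krt10, the type I partner of Krt1, had at least 80 counts in every library. It stood at 16.2, 39.9, 4.17 and 5.33 CPM in knockouts 1 to 4, against 3.69, 65.6, 5.02, 4.64 and 4.46 CPM in controls 1 to 5. In the 6 libraries of low keratin it had 80 to 124 counts, while Krt1 had at most 4 there. For each Krt10 count there were 0.251 and 0.304 Krt1 counts in knockouts 1 and 2 and 0.296 in control 2, but at most 0.0385 in the other 6 libraries. Only 2.37% of the 50-base words of Krt10 stand in other genes, all in Gm11940, whose exons overlap 6.91% of the exon bases of Krt10 on the opposite strand. Krt28 and Krt12, the neighbours of Krt10 in RefSeq's annotation of chromosome 11, had at most 2 and 1 counts in any library.

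Further keratins, among them those of follicle openings, glands and injured skin, were lower than Krt5, Krt1 and Krt77 in control 2 and knockouts 1 and 2. Krt17, a type I keratin of skin appendages and of healing epidermis, had 14, 54, 0 and 0 counts in knockouts 1 to 4, against 0, 133, 0, 0 and 0 in controls 1 to 5. Krt79, known in mouse from the upper hair follicle and the sebaceous duct, had 24, 40, 8 and 4 counts in knockouts 1 to 4, against 2, 72, 1, 5 and 7 in controls 1 to 5. Krt23 had 9, 29, 0 and 0 counts in knockouts 1 to 4, against 0, 37, 1, 2 and 0 in controls 1 to 5. Krt78 reached 22 counts in control 2, and Krt75, a keratin of the follicle's companion layer, reached 10 counts in knockout 2 and in control 2. The wound-associated keratins Krt6a and Krt16 reached 6 counts each, in knockout 2, and Krt6b reached 2. Because 57.2% of the words of Krt6a and 50.1% of those of Krt6b are shared, mainly between these 2 genes, their counts could not be told apart with certainty.

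**Figure D2:**
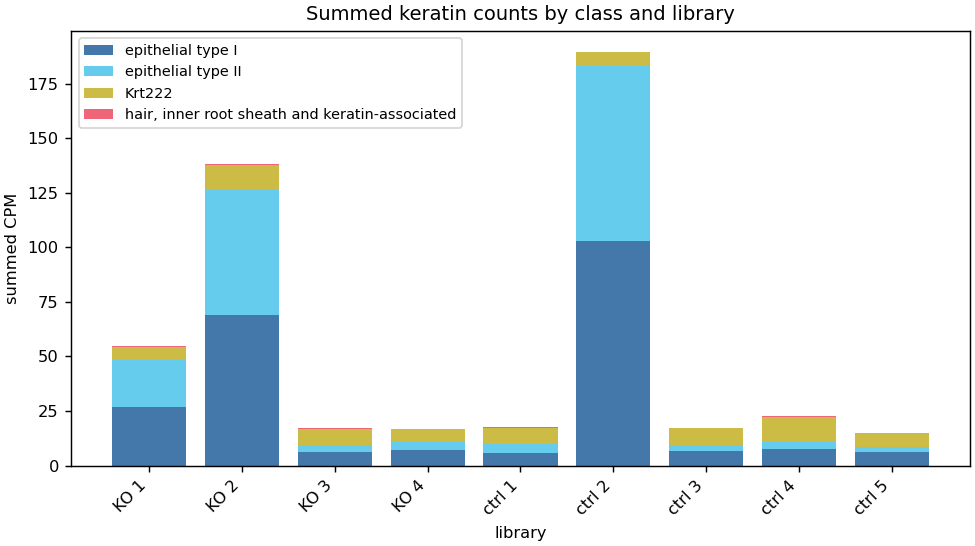
Summed CPM of the keratin classes (stacked bars, linear axis from 0) in each library, knockouts left. Epithelial type I and type II keratins make up the tall bars of KO 1, KO 2 and ctrl 2, and the class of hair, inner root sheath and keratin-associated genes is a barely visible sliver.

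Both partner types were highest in the same 3 libraries. The 14 epithelial type I keratins summed to 600, 1552, 141 and 135 counts in knockouts 1 to 4, against 122, 2640, 159, 165 and 126 in controls 1 to 5. The 14 epithelial type II keratins summed to 495, 1296, 72 and 75 counts in knockouts 1 to 4, against 91, 2062, 71, 70 and 46 in controls 1 to 5. Type II genes held 45.2% (95% Wilson interval 42.3 to 48.2) and 45.5% (43.7 to 47.3) of the epithelial keratin counts in knockouts 1 and 2, against 43.9% (42.4 to 45.3) in control 2. In these 3 libraries the intervals overlapped. The share was between 26.7% and 42.7% in the other 6 libraries, where most counts belonged to Krt10, Krt80 and Krt19. The intervals cover counting error only, since reads of amplified cDNA are not independent molecules.

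The makeup of the epidermal keratins was set out for the 3 libraries side by side. Krt14 had 0.617 and 0.644 counts for each Krt5 count in knockouts 1 and 2, against 0.607 in control 2, and the intervals of its share of the pair overlapped (32.6% to 44.1% and 35.8% to 42.7%, against 34.9% to 40.8%). Krt77 had 0.509 and 0.704 counts for each Krt5 count in knockouts 1 and 2, against 0.835 in control 2. Its share of the pair was 33.7% (28.2 to 39.8) in knockout 1, against 45.5% (42.7 to 48.3) in control 2, where the intervals did not overlap, while that of knockout 2, 41.3% (37.9 to 44.8), overlapped with control 2. Krt17 had 0.0838 and 0.117 counts for each Krt5 count in knockouts 1 and 2, against 0.206 in control 2. Its share of the pair was 7.73% (4.66 to 12.6) and 10.4% (8.09 to 13.4) in knockouts 1 and 2, against 17.1% (14.6 to 19.9) in control 2. These are single libraries chosen for their high keratin level, and the intervals hold no spread between samples, so the shares are a description and neither a difference nor a likeness is drawn from them.

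**Figure D3:**
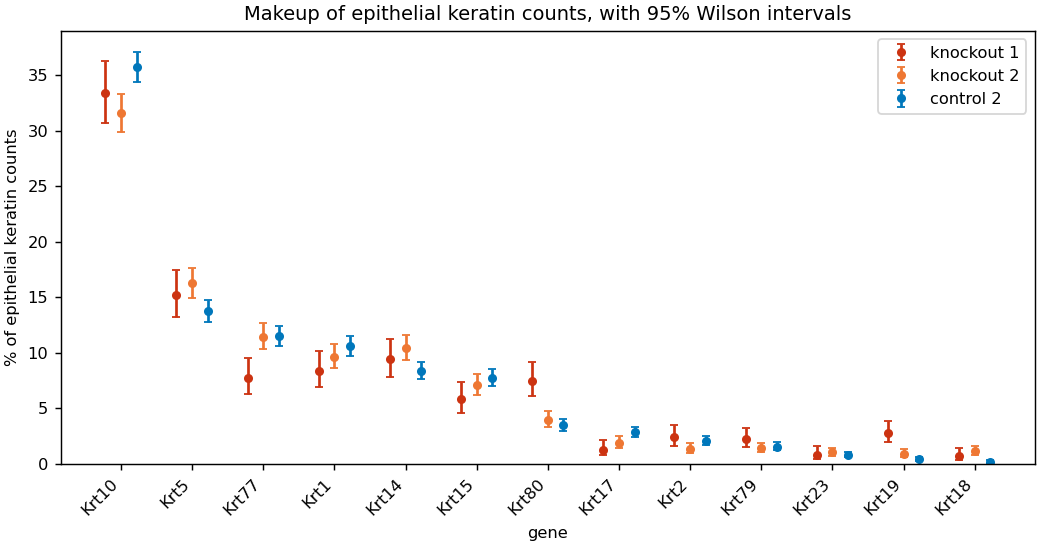
Share of each named epithelial keratin (points) in the epithelial keratin counts of KO 1, KO 2 and ctrl 2, in percent, with 95% Wilson intervals (bars). Krt10 leads in all 3 libraries at 33.4%, 31.6% and 35.8%, and Krt5 is next at 15.3%, 16.3% and 13.8%.

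Levels between genes were compared per kilobase of exon, using the union of annotated exons in GENCODE M21. On that scale Krt10 stood at 7.67 and 18.9 CPM per kilobase in knockouts 1 and 2 and at 31.1 in control 2. Krt5 stood at 3.37 and 9.35 CPM per kilobase in knockouts 1 and 2 and at 11.5 in control 2. Krt14 followed at 2.60 and 7.52 CPM per kilobase in knockouts 1 and 2 and at 8.73 in control 2. The exon union takes in long annotated isoforms, 4415 bases for Krt1 against 2114 for Krt10, so a long union lowers the level per kilobase.

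A second pattern was carried by keratins of like level in all libraries. Krt222, a gene named for its likeness to keratins, stood at 5.94, 11.3, 7.59 and 5.94 CPM in knockouts 1 to 4, against 7.43, 5.74, 7.74, 11.5 and 6.32 CPM in controls 1 to 5. Control 2, the highest library for Krt5, Krt14, Krt1 and Krt10, was the lowest of the 9 libraries for Krt222. Its 5.74 CPM lay just under the 5.94 CPM of knockouts 1 and 4. Knockout 2, also high in epidermal keratin, stood near the top at 11.3 CPM. Krt19, a type I keratin of simple epithelia, stood at 1.33, 1.15, 1.49 and 0.871 CPM in knockouts 1 to 4, against 1.62, 0.742, 0.769, 1.44 and 1.18 CPM in controls 1 to 5. Here too control 2 was lowest, but only by its larger library total, since control 3 had the same 19 counts. Krt24, the neighbour of Krt222, had at most 1 count in any library.

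Krt18 and Krt8 form the pair of simple epithelia. Krt18 had 8, 33, 8 and 6 counts in knockouts 1 to 4, against 5, 8, 12, 25 and 10 in controls 1 to 5. Knockout 2 and control 4 were highest, an order that the epidermal keratins did not show. Krt8 had 1, 8, 0 and 5 counts in knockouts 1 to 4, against 2, 2, 1, 4 and 2 in controls 1 to 5, and 29.7% of its words stand in other genes, mostly in the pseudogene Krt8-ps. Krt7 and Krt20, keratins of glandular and intestinal epithelia, had at most 4 and 6 counts.

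Krt80, a type II keratin of many epithelia, lay between the 2 patterns. It stood at 3.63, 5.01, 2.59 and 2.46 CPM in knockouts 1 to 4, against 3.69, 6.37, 2.51, 2.55 and 1.57 CPM in controls 1 to 5. Control 2 and knockout 2 were again highest, but control 1 reached 3.69 CPM with 0 counts of Krt5 and of Krt14. The range over libraries was far narrower than that of Krt5.

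Hair keratins and keratin-associated genes added almost nothing. The 9 hair type I keratins summed to 0 to 3 counts in any library, and the 6 hair type II keratins to at most 1. The 8 keratins of the inner root sheath summed to at most 2 counts, with Krt28 and Krt25 as the genes concerned. Of 52 keratin-associated genes, 50 had 0 counts in all 9 libraries. Krtap3-2 had 4 and 5 counts in knockouts 1 and 2 and 2 counts in control 2, the 3 libraries of high epidermal keratin, and none elsewhere. Since a count of 0 was read as up to 3 counts, its 2 counts do not set control 2 apart. Krtap10-10 had 1 count, in control 5. For Krtap3-2, 28.9% of its words stand also in Krtap3-3. Many of these genes are near copies of each other, and no source used here says how reads with several matches were counted, so a count of 0 limits uniquely counted reads only.

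The comparison of knockout with control muscle asks which transcripts differ when Gprc6a is deleted in muscle fibres. No keratin gene passed the test. In edgeR's quasi-likelihood test over 13198 genes, 5 of the 104 genes had enough counts to be tested and 0 were called, where 0% of all tested genes were called. None of the 5 had an unadjusted p under 0.05, against 419 of all tested genes, and DESeq2 called 0 of the 5 and 0.0531% of all genes. Krt10 averaged 16.4 ± 16.6 CPM in 4 knockouts and 16.7 ± 27.4 CPM in 5 controls, a log2 fold change of -0.10 with a standard error (SE) of 0.97. Without control 2 that fold change was 1.87 (SE 0.59, edgeR unadjusted p = 0.0102, adjusted p = 0.797), and without knockout 2 it was -0.99. Krt222 was at 0.01 (SE 0.22), Krt80 at 0.03 (SE 0.36), Krt19 at 0.12 (SE 0.29) and Krt18 at 0.23 (SE 0.55). Without control 2 and knockouts 1 and 2, Krt10 stood at 0.19 (SE 0.19), Krt18 at -0.72 (SE 0.66), Krt222 at -0.17 (SE 0.25), Krt80 at 0.08 (SE 0.32) and Krt19 at 0.04 (SE 0.39), and again none was called. The median of the 5 genes was 0.03, beside -0.002 over all genes tested.

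The epidermal keratins other than Krt10 did not enter that fit, because the filter asks for counts in at least as many libraries as the smaller group holds and only 3 libraries had them. With every gene kept that reached 10 counts in at least 1 library, 16 of the 104 genes were tested and 0 were called, where 0% of 14105 genes were called. Krt5 then had a log2 fold change of 0.35 (SE 1.85), Krt14 of 0.42 (edgeR adjusted p = 0.988), Krt1 of -0.04 (SE 1.84) and Krt77 of 0.01 (SE 1.83). Standard errors of this size leave differences of several fold in either direction undetectable in these libraries. In none of the 35 genes with counts did the knockout and control values fail to overlap, where this was so for 0.785% of 18207 genes with counts.

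**Figure D4:**
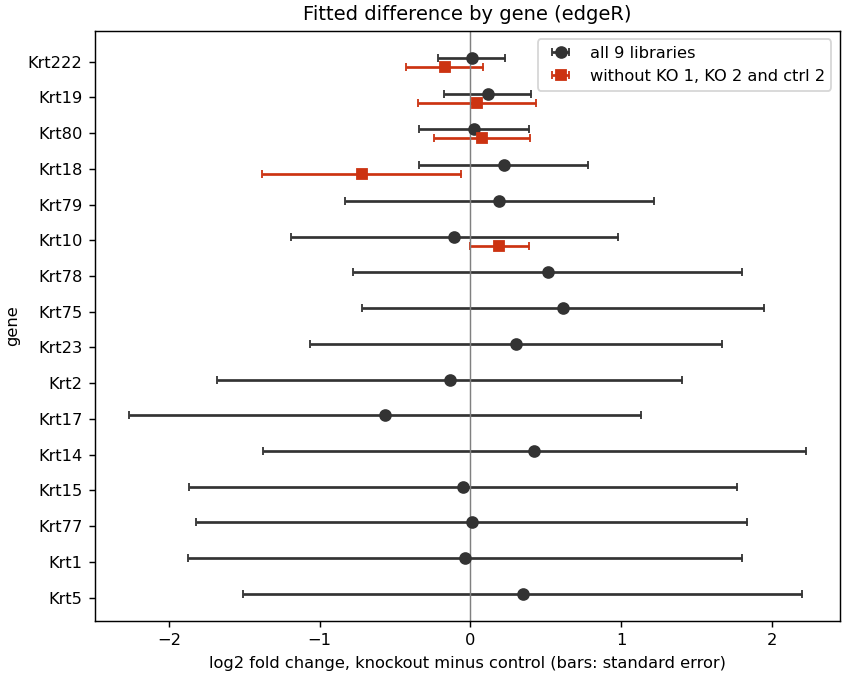
Log2 fold change, knockout minus control, of the 16 keratin genes with at least 10 counts in at least 1 library, in edgeR (points) with standard errors (bars), for all 9 libraries in black and for the 5 genes of the main test without KO 1, KO 2 and ctrl 2 in red. The bars of all black points reach 0, and those of Krt5, Krt1, Krt77 and Krt15 are the widest.

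Markers of other cell types were set beside the keratins, and their part in the result was not tested. The 27 genes found of a list for differentiating epidermis summed to 30.1, 91.1, 3.33 and 3.48 CPM in knockouts 1 to 4, against 2.08, 137, 3.28, 2.79 and 5.10 CPM in controls 1 to 5. Control 2, knockout 2 and knockout 1 were highest in that order, as for the summed keratins, and for 21 of the 27 genes control 2, knockout 1 and knockout 2 were the 3 highest libraries, in any order. The same held for 13 of the 35 keratin and keratin-associated genes with counts. Those 3 libraries were picked by the summed counts of these same genes, so that number is no test. Among 18172 other genes with counts, the marker genes included, it held for 2.26%. Lor, the main protein of the cornified envelope, stood at 6.12, 20.6, 0.0439 and 0.359 CPM in knockouts 1 to 4, against 0, 38.2, 0.162, 0.232 and 0.490 CPM in controls 1 to 5. Of 19 basal epidermis genes 9 had these 3 libraries as the highest, in any order, among them the desmosome protein Pkp1, which stood at 1.60, 4.79, 0.0439 and 0.205 CPM in knockouts 1 to 4, against 0.0462, 6.48, 0, 0 and 0 CPM in controls 1 to 5. The basal list summed to 75.9, 103, 52.9 and 50.3 CPM in knockouts 1 to 4. In controls 1 to 5 it summed to 79.3, 96.9, 60.1, 61.2 and 46.2 CPM, so control 1 lay above knockout 1. The genes of highest mean in that list did not follow the keratins. Itgb4 was lowest in control 2 at 12.5 CPM, and Itga6 was highest in control 1 at 30.8 CPM. Trp63, the master regulator of stratified epithelia, was similar everywhere, at 9.94 to 15.2 CPM in knockouts and 8.27 to 15.8 CPM in controls.

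Markers of simple epithelium, sebaceous gland, hair and pigment cells went with the keratins to different extents. The simple epithelium list summed to 4.48, 8.03, 2.81 and 3.12 CPM in knockouts 1 to 4, against 2.40, 11.2, 3.36, 2.74 and 2.16 CPM in controls 1 to 5, with control 2, knockout 2 and knockout 1 highest in that order, as for the summed keratins. The sebaceous gland list summed to 5.10, 8.70, 2.68 and 3.43 CPM in knockouts 1 to 4, against 3.14, 4.57, 2.83, 4.41 and 4.61 CPM in controls 1 to 5. Its highest libraries were knockouts 2 and 1, while control 2 lay among the other controls. The melanocyte list summed to 12.2 to 20.8 CPM in knockouts and 14.3 to 20.9 CPM in controls. Of 23 hair follicle genes, 2 had control 2, knockout 1 and knockout 2 on top, and Tchhl1 and Dsg4 were at 0 in every library. The summed hair list was 96.7 to 136 CPM in knockouts and 88.7 to 147 CPM in controls, carried by Hr, a nuclear receptor corepressor. Hoxc13, a regulator of hair keratins, had 1 and 3 counts in knockouts 1 and 2 and 3 counts in control 2, and none elsewhere. Since a count of 0 was read as up to 3 counts, these values set no library apart. The same top 3 held for 1 of 8 melanocyte, 2 of 7 sebaceous gland and 4 of 10 simple epithelium genes. It held for 0 of 5 mesothelium, 0 of 10 adipocyte, 0 of 6 erythroid, 0 of 8 muscle fibre and 0 of 16 non-keratin intermediate filament genes. Among genes of desmosomes and plakins it held for 4 of 13. Some of these cases rest on few counts. The melanocyte gene, Slc45a2, had 5 counts in each of knockouts 1, 2 and 3 and 9 in control 2. The sebaceous gland gene Awat1 had 3 and 9 counts in knockouts 1 and 2 and 2 counts in control 2. Desmin (Des), the intermediate filament protein of muscle, stood at 4191 to 4976 CPM in knockouts and 3725 to 4606 CPM in controls.

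**Figure D5:**
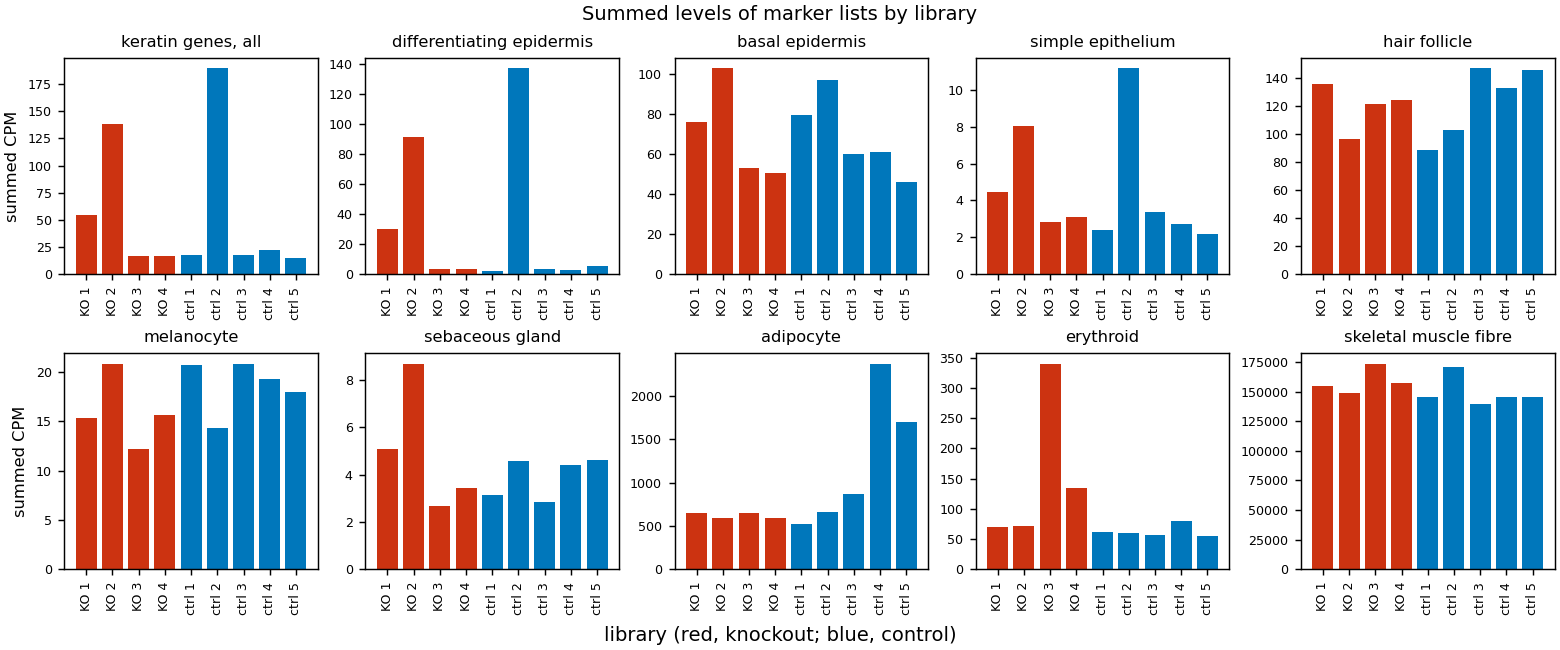
Summed CPM of all keratin and keratin-associated genes and of 9 marker lists (panels, each with its own linear axis from 0) in each library, knockouts in red at the left and controls in blue. The differentiating epidermis panel has the same 3 tall bars as the keratin panel, while adipocyte genes are highest in ctrl 4 and ctrl 5 and erythroid genes in KO 3 and KO 4.

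Of 12810 other genes with at least 30 counts in all and 1 CPM in at least 1 library, the 10 whose level was most like the keratin sum were Clca2, Fam25c, Lce1c, Pla2g2f, Col17a1, S100a14, Kprp, 2310050C09Rik, Dapl1 and Fcgbp. The measure of likeness was Pearson's r over the 9 libraries on the log2(CPM + 0.5) scale, which lay between 0.992 and 0.996 and is given as a description, since it rests on the 3 libraries that stand apart. Clca2, a chloride channel accessory protein, had 18, 76, 0 and 0 counts in knockouts 1 to 4, against 0, 93, 0, 3 and 0 in controls 1 to 5. Col17a1, a collagen that anchors basal keratinocytes, had 50, 115, 11 and 7 counts in knockouts 1 to 4, against 8, 164, 11, 10 and 9 in controls 1 to 5. Set against the 67 hair keratins and keratin-associated genes, whose sum was 1 to 7 counts in a library, the best likeness was 0.886, for Nudt10. A profile made of so few counts orders no genes, and the rest of that ranking is not given.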

How the data were processed

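Messenger RNA was counted in 9 libraries. The authors deposited raw counts of reads per gene symbol, whole numbers without normalization. The submitters' processing notes list HTSeq 0.6.1, TopHat, Bowtie 0.12.7 and bcl2fastq 1.8.4, and name mm9 as genome build. Which annotation and strand setting were used, and how multiply matching reads were handled, is not given in the sources used here. Amplified cDNA made with NuGEN's Ovation system went into the libraries, per the labels' protocols. No label ties a library to its own mouse, and p-values therefore rest on the spread among libraries, which may be partly technical.

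CPM are counts scaled to a library total of 1e6, computed from the deposited counts. The test was edgeR 4.0.16 in R 4.3.3: genes kept by filterByExpr with a minimum count of 10, TMM scaling, a robust quasi-likelihood fit with group as the only term, and Benjamini-Hochberg adjustment at 0.05 over all tested genes. Log2 fold changes are knockout minus control, SE is the fold change over the root of F, and ± is SD. DESeq2 1.42.0 was an alternative. The steps were tested on simulated counts. Depth ranged from 19522947 to 25608659 counts, and a count of 0 was read as up to 3 counts.

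Genes were named by rule: every keratin or keratin-associated gene with at least 1 CPM in at least 1 library, up to 3 genes of highest mean in each of 12 marker lists, and the 10 other genes most like the keratin sum. Krtdap, Krtcap2 and Krtcap3 match neither pattern and were not counted. One gene of a marker list is not reported here by itself. Values of genes under 1 CPM, and of Pkp1, Hoxc13, Tchhl1 and Dsg4, were added after they were seen. The genes and lists were chosen with earlier results of these data known. Of the 104 symbols, 95 matched RefSeq symbols of GRCm38.p6, 8 matched synonyms and 1 matched neither. GENCODE M21 (GRCm38) gave exon lengths and shared 50-base words. Sequences are from RefSeq. Alternatives were RLE scaling, library totals, DESeq2, other filters, non-robust fitting, a threshold of 0.1, a replicate block, leaving out each library, and for summed levels TMM scaling or totals without Rn45s and the 20 most abundant genes. Leaving out control 2 and knockouts 1 and 2 was chosen after seeing the data.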

Additional observations from a re-analysis of the deposited data

Results flagged for a closer look

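In each group the gap between the most extreme library and its neighbour was divided by the range of the group (Dixon's ratio, with critical values of 0.829 for 4 and 0.71 for 5 libraries). Of 160 such ratios, 38 passed, where chance flags about 1 in 20 groups. That rate is no yardstick here, because the keratins were selected on these same counts and the ratios for them, their sums and the genes most like them only describe how far a library lay from its group. In 29 of the 38 the library was control 2, as the highest of the controls. Among keratins the ratio for control 2 was 0.998 for Krt1, 0.979 for Krt10, 0.997 for Krt14, 1.0 for Krt15, 1.0 for Krt17, 0.989 for Krt2, 0.936 for Krt23, 0.998 for Krt5, 0.996 for Krt77 and 0.891 for Krt79. The sums gave 0.956 for all 104 genes, 0.979 for epithelial type I and 0.975 for epithelial type II keratins. Among marker lists and genes, control 2 was highest with 0.978 for the differentiating epidermis list, 0.866 for the simple epithelium list and 0.796 for the muscle fibre list. The same library was highest for Lor (0.987), Sbsn (0.976) and Dmkn (0.994). Of the genes most like the keratin sum, the ratio was 0.962 for Clca2, 1.0 for Fam25c, Lce1c, Pla2g2f and 2310050C09Rik, 0.984 for Col17a1, 0.947 for S100a14, 0.99 for Kprp, 0.965 for Dapl1 and 0.946 for Fcgbp. The ratios are not independent of each other.

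By this ratio other libraries were flagged in few genes. Because it compares the most extreme library with its neighbour, high libraries of the same group can hide each other. Krt5 had no flag among knockouts. It stood at 7.40 and 20.5 CPM in knockouts 1 and 2, against 0.0439 and 0.102 CPM in knockouts 3 and 4. The few flags in knockouts therefore do not mean that only control 2 stood apart. Krt18 was highest in knockout 2 among knockouts (0.959) and in control 4 among controls (0.721). The hair type II keratins gave 1.0 in knockout 1, which rests on a single count. Control 4 was highest for the erythroid list (0.744) and its gene Beta-s (0.872). Control 2 was lowest for Vim (0.731) and Dct (0.783), and knockout 4 was lowest for Dct (0.831) and Slc45a2 (0.979).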

How the results depend on the processing

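No keratin or keratin-associated gene was called under any alternative run. For all genes the count was 0 in edgeR, 7 with DESeq2, all lower in knockouts, and 1 with the replicate block (Fosb, log2 fold change -1.29, adjusted p = 0.0275). The label numbers were not taken as pairs, since same-numbered libraries correlated by 0.42, 0.04, 0.08 and -0.07 in their deviations from the group means. Under that block, which leaves out control 5, Krt10 stood at 0.30 (edgeR adjusted p = 0.764). With 1 library left out the called counts were 0 to 0. Over all alternatives the log2 fold change ranged from -0.99 to 1.87 for Krt10, -0.72 to 0.43 for Krt18, -0.18 to 0.43 for Krt80, -0.19 to 0.19 for Krt222 and -0.04 to 0.27 for Krt19, so none of these directions is fixed. The mean keratin sum was 56.7 CPM in knockouts and 52.3 CPM in controls. After TMM scaling it was 55.0 CPM in knockouts and 53.4 CPM in controls. With totals that leave out Rn45s and the 20 most abundant genes it was 83.2 CPM in knockouts and 79.7 CPM in controls. With 1 library left out it ranged from 29.6 (without knockout 2) to 69.9 CPM in knockouts and from 18.0 (without control 2) to 61.7 CPM in controls. Without control 2 and knockouts 1 and 2 it was 16.9 CPM in knockouts and 18.0 CPM in controls, with Krt222 as a large part. Depth limits the hair and keratin-associated genes, where a count of 0 allows up to 0.154 CPM.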

Other observations

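The sample descriptions end in a number after the letters GP, with no stated meaning. Knockouts 1 to 4 carried GP numbers 1, 3, 5 and 6, and controls 1 to 5 carried 2, 4, 7, 8 and 9. The libraries of high epidermal keratin were thus 1 and 3 among knockouts and 4 among controls, while number 2, control 1, had 17.4 CPM of summed keratin. The list of erythroid genes summed to 340.4 and 134 CPM in numbers 5 and 6, both knockouts, and to 54.5 to 79.2 CPM in the other 7 libraries. The list of adipocyte genes summed to 2372 and 1698 CPM in numbers 8 and 9, both controls, and to 524 to 871 CPM in the other 7 libraries. Libraries rich in 1 of these lists therefore did not coincide with libraries rich in another. What the numbers record was not tested.

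Krtdap, a secreted protein of differentiating keratinocytes whose name resembles those of the keratin-associated genes, had 41, 163, 5 and 5 counts in knockouts 1 to 4, against 4, 242, 5, 5 and 16 in controls 1 to 5. Krtcap2, a subunit of the complex that attaches sugar chains to new proteins, stood at 29.1 to 37.0 CPM in knockouts and 23.5 to 39.6 CPM in controls. Krtcap2 thus did not show the order of libraries seen for Krt5.

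Without control 2 and knockouts 1 and 2, 1298 of 13318 genes had an unadjusted p under 0.05 in edgeR, against 419 of 13198 in all libraries, and 0 were called in both fits. That fit sets 2 knockouts, those high in erythroid genes, against 4 controls that include both high in adipocyte genes. Leaving out control 5 alone gave 930 of 13136 genes, and each other single library left out gave 230 to 747. The replicate block, which keeps control 2 and knockouts 1 and 2, gave 1427 of 13136. What moves this number was not tested.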
